A study of Mus musculus with 6 samples.

Results

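The genes of sterol and fatty acid synthesis were followed in colonic crypts of mice given the EZH2 inhibitor GSK503 or vehicle. The members were 32 genes, listed by their known place in the pathway of the sterol regulatory element-binding proteins (SREBPs). All 32 were among the 18049 genes of the deposited table, and all 32 passed the filter on low values. They fell into 19 sterol synthesis genes, 8 fatty acid synthesis genes and 5 regulators of the pathway.

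Crypts are the epithelial glands of the colon, and EZH2 is the enzyme that methylates lysine 27 of histone H3. Total RNA was sequenced from 3 control libraries and 3 GSK503 libraries. By the study's methods, all of the mice were of a single line on a C57BL/6J background, a model of Lynch syndrome that carries Villin-Cre, which acts in intestinal epithelium, and a knockin that places a repeat of 11 A bases in *TgfβRII*. The controls carried the same alleles, and all mice ate a Western-style diet with 20% fat from 8 weeks of age. GSK503 was injected into the tail vein 2 times a week at 200 μg/kg for 9 weeks. The labels name PBS for the GSK503 injection and 20% captisol in PBS for the control injection, so the drug and the absence of captisol cannot be told apart. By the study's methods, female and male mice were included in equal shares, and the labels give no sex. Expression of X- and Y-linked genes separated the groups of these libraries completely, so treatment and sex cannot be told apart for any gene below. The age at collection was not given in the sources used here, and the labels do not say that each library came from a separate mouse, so the p-values measure the spread between these libraries.

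SREBPs are transcription factors held in the membrane of the endoplasmic reticulum. When sterols are scarce, the escort protein Scap carries them to the Golgi, where they are cut and released to the nucleus; when sterols are plentiful, the Insig proteins hold Scap back. SREBP-2, the product of *Srebf2*, is known mainly for activating cholesterol synthesis genes, and SREBP-1, the product of *Srebf1*, for activating fatty acid synthesis genes. The colonic epithelium renews itself continuously and needs membrane lipid to do so.

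Short stretches of promoter are shown for the sterol genes with higher expression after GSK503, because these genes are known as targets of the same transcription factors. Promoter windows of 300 bases, from 250 before to 50 after each transcription start, were taken from RefSeq (build GRCm38.p6) and all 35 windows of the members matched GRCm39 exactly, so the positions given here are those of GRCm39. A window was held for 26 of the 32 members. Each stretch has 30 bases, written on the strand of its gene. Capitals mark the letters TCACNCCA, which resemble a sterol regulatory element and are called SRE-like here.
*Hmgcs1* at chr13:120151739-120151768: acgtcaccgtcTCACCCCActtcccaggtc
*Msmo1* at chr8:65186771-65186800: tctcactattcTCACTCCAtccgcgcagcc
In the next stretches, capitals mark the CCAAT box, the letters bound by the factor NF-Y, either as CCAAT or as its reverse complement ATTGG. The match closest to the start, on its upstream side, is shown for each gene.
*Hmgcs1* at chr13:120151830-120151859: tccccgcctctcATTGGctgaaagcggatc
*Mvd* at chr8:123170171-123170200: ccggccagcgggCCAATcatatggcagcgc
*Idi1* at chr13:8935616-8935645: gtccaaggtgccATTGGctggcgaccgaca
*Cyp51* at chr5:4154709-4154738: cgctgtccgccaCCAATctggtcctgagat
*Msmo1* at chr8:65186650-65186679: gagtggggcggaCCAATtacgacaggcgag
*Msmo1*, *Mvd* and *Cyp51* lie on the minus strand and *Hmgcs1* and *Idi1* on the plus strand. The CCAAT letters marked for *Hmgcs1* lie outside every exon in the GENCODE annotation of GRCm39. The marked letters of the other 6 stretches overlap an exon of at least 1 annotated transcript, and exons of any gene were counted.

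Values are estimated CPM, that is, RSEM estimated counts scaled to a common, TMM-adjusted library size. A log2FC is the difference in log2(CPM + 0.1) between GSK503 and control libraries, fitted with limma over all 16670 genes that reached 0.1 in at least 3 libraries. A gene was called at an adjusted p below 0.05, with 0.1 as a second level. With 3 libraries against 3, an exact two-sided permutation test of a single gene cannot go below p = 0.1. In the 6 libraries, estimated totals lay between 108162849 and 135085026 counts, and 3 counts were worth between 0.0228 and 0.0271 CPM. This floor covers counting error only, and every member lay far above it.

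All members called at 0.05 were sterol genes and were higher after GSK503, and the difference between the arms was not tested. Of the 19 sterol genes, 6 rose at an adjusted p below 0.05 from limma (*Hmgcs1*, *Mvd*, *Idi1*, *Fdps*, *Cyp51* and *Msmo1*), 9 passed 0.1, and 18 had a higher fitted mean. Among all genes tested, 0.498% were called higher and 0.144% lower at 0.05, and 1.41% higher and 0.558% lower at 0.1. Of these 16670 genes, 8159 had a higher fitted mean and 8511 a lower one. An unadjusted p below 0.05 from limma was found for 1177 higher and 1046 lower genes of the 16670. In 14 of the 19 sterol genes, all GSK503 libraries lay above all controls, where 9.84% of all genes tested did so and 9.22% lay wholly below. The median log2FC of the sterol genes was 0.58, beside 0.12 for the fatty acid genes, 0.08 for the regulators and -0.01 for all genes tested. No member fell at either level, and no member was called lower by limma-voom or had an unadjusted p below 0.05 in that direction. In bulk libraries, a change in the share of a cell type and a change in its RNA per cell cannot be told apart.

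**Figure D1:**
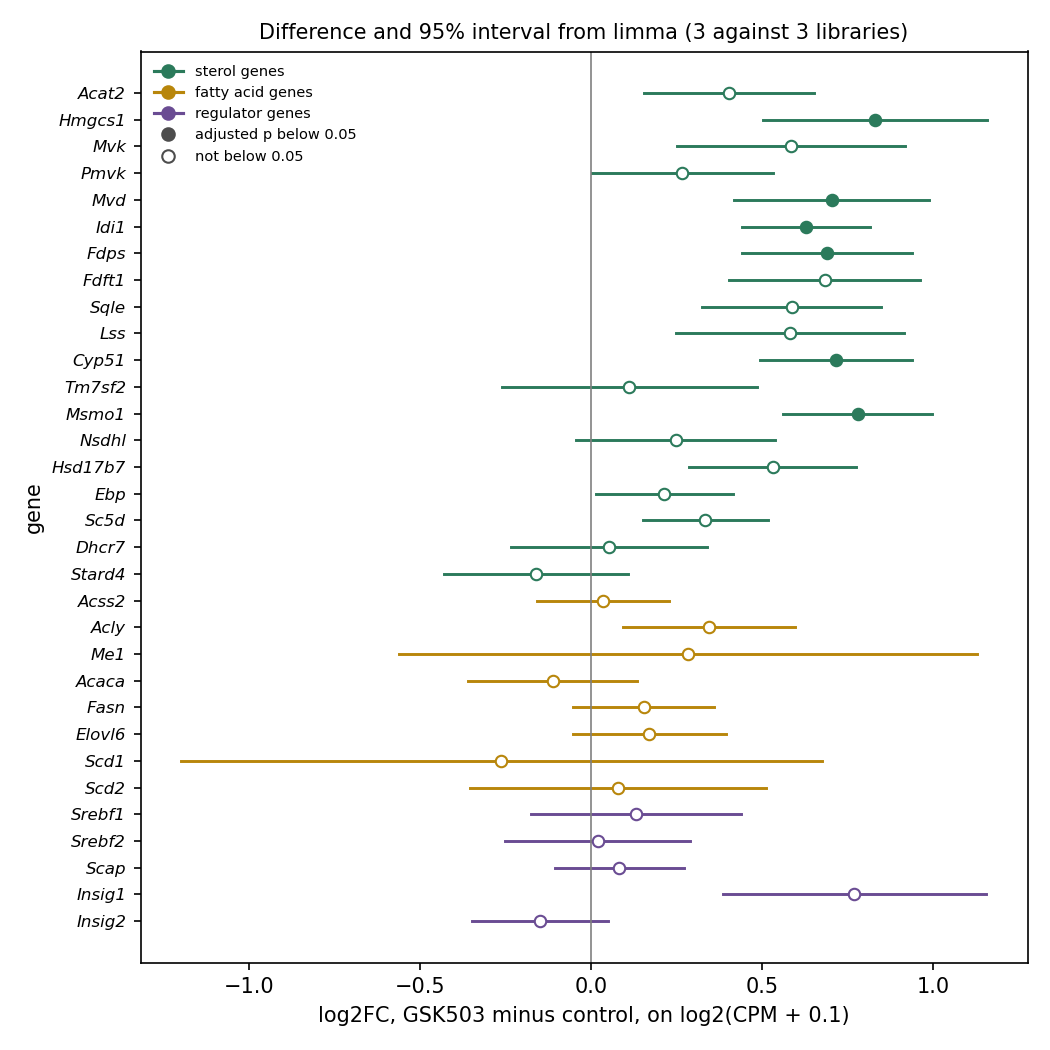
Fitted log2FC (GSK503 minus control, x axis, on log2(CPM + 0.1)) of each member, with its 95% interval from limma as a line; filled points passed an adjusted p of 0.05. The 6 filled points are all sterol genes, between 0.63 and 0.83, whereas the intervals of 7 of the 8 fatty acid genes include 0.

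The sterol pathway starts with acetyl-CoA. *Acat2*, which encodes the cytosolic thiolase that joins acetyl-CoA units, had 49.1, 40.2 and 42.5 CPM in control libraries 1, 2 and 3 and 59.9, 64.2 and 50.6 CPM in GSK503 libraries 1, 2 and 3. All treated libraries were above all controls, though the lowest treated library was close to the highest control. Its log2FC of 0.40 (SE 0.11) did not pass (limma adjusted p = 0.144).

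The mevalonate steps held the most called genes, 4 of 6, with a median log2FC of 0.66. *Hmgcs1*, the cytosolic HMG-CoA synthase, had 371, 249 and 257 CPM in the controls and 533, 541 and 461 CPM after GSK503. Its mean went from 292 ± 68.3 (SD, n = 3) to 512 ± 43.8 (SD, n = 3), which was the largest log2FC of all members at 0.83 (SE 0.15, limma adjusted p = 0.0445). Control library 1 was high for this gene, yet it stayed below the lowest treated library.

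*Mvk* and *Pmvk* encode the kinases that add phosphate to mevalonate. *Mvk* had 36.6, 30 and 25.5 CPM in the controls and 51.3, 48.3 and 38.1 CPM after GSK503, with no overlap but little room between control library 1 and GSK503 library 3. The log2FC of *Mvk* was 0.58 (SE 0.15, limma adjusted p = 0.125). *Pmvk* overlapped between groups, with 42.6 to 52.4 CPM in the controls and 49.3 to 65.6 CPM after GSK503 (log2FC 0.27, limma adjusted p = 0.372).

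*Mvd*, the decarboxylase that makes isopentenyl diphosphate, had 50.9, 36.5 and 42.7 CPM in the controls and 76.8, 71.7 and 62.3 CPM after GSK503. All treated libraries were above all controls, and the gene rose by a log2FC of 0.70 (SE 0.13, limma adjusted p = 0.0475). *Idi1*, the isomerase that turns isopentenyl diphosphate into its reactive isomer, had 89.1, 75.6 and 81.9 CPM in the controls and 127, 134 and 120 CPM after GSK503. Both groups of *Idi1* were narrow, and its log2FC was 0.63 (SE 0.08, limma adjusted p = 0.0136). *Fdps*, which builds farnesyl diphosphate, had 137, 107 and 107 CPM in the controls and 193, 201 and 169 CPM after GSK503. Its log2FC was 0.69 (SE 0.11, limma adjusted p = 0.0294), and the lowest treated library was well above control library 1.

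The squalene steps commit farnesyl diphosphate to sterols. *Fdft1*, squalene synthase, had 141, 99.5 and 100 CPM in the controls and 182, 179 and 179 CPM after GSK503. The treated libraries were nearly identical for *Fdft1* (180 ± 1.56, SD, n = 3), the control spread was wide (114 ± 23.7, SD, n = 3), and its log2FC of 0.68 (SE 0.12) lay just outside the first level (limma adjusted p = 0.0505). *Sqle*, squalene epoxidase, had 138, 105 and 99.1 CPM in the controls and 168, 176 and 164 CPM after GSK503 (log2FC 0.59, SE 0.12, limma adjusted p = 0.0608). *Lss*, the cyclase that makes lanosterol, had 84.3, 55.4 and 64.5 CPM in the controls and 108, 107 and 86.9 CPM after GSK503, and GSK503 library 3 was barely above control library 1. The log2FC of *Lss* was 0.58 (SE 0.15, limma adjusted p = 0.124). None of these 3 genes passed 0.05 with limma or limma-voom, although all 3 had an unadjusted p below 0.05.

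Not all of the 8 genes that turn lanosterol into cholesterol passed, and differences between these genes were not tested. The early demethylation enzymes *Cyp51* and *Msmo1* rose, *Hsd17b7* passed the second level, and the remaining 5 did not pass. *Cyp51*, the 14-alpha demethylase of lanosterol, had 160, 142 and 128 CPM in the controls and 237, 255 and 213 CPM after GSK503 (log2FC 0.71, SE 0.10, limma adjusted p = 0.0157). *Msmo1*, the C4-methyl sterol oxidase, had 97.4, 75.1 and 83.1 CPM in the controls and 144, 152 and 141 CPM after GSK503. It had the smallest adjusted p of all members, with a mean of 85.2 ± 11.3 in the controls and 146 ± 5.70 after GSK503 (SD, n = 3 each), a log2FC of 0.78 (SE 0.10, limma adjusted p = 0.00948). For both genes the groups were far apart compared with the spread within them.

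*Hsd17b7*, the 3-ketosteroid reductase that works beside *Msmo1* in removing the C4 methyl groups, had 21.8, 18.9 and 18.3 CPM in the controls and 31.1, 26.0 and 28.3 CPM after GSK503 (log2FC 0.53, SE 0.11, limma adjusted p = 0.0685). *Nsdhl*, the dehydrogenase of the same complex, overlapped, with 31.2 to 40.5 CPM in the controls and 35.4 to 47.1 CPM after GSK503 (log2FC 0.25, limma adjusted p = 0.458). *Tm7sf2*, a sterol C14 reductase, also overlapped, with 11.9 to 16.3 CPM in the controls and 12.5 to 17.8 CPM after GSK503 (log2FC 0.11, limma adjusted p = 0.823). The fitted difference of *Tm7sf2* turned negative with scaling by library size alone (-0.0023) and without control library 3 (-0.02).

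None of *Ebp*, *Sc5d* and *Dhcr7*, which act late in the pathway, passed either level. *Ebp*, which shifts the double bond of the sterol ring, had 81.1, 83.8 and 69.2 CPM in the controls and 85.9, 95.5 and 89.5 CPM after GSK503, with no overlap but a log2FC of only 0.21 (limma adjusted p = 0.342). *Sc5d*, the lathosterol desaturase, had 74.7, 62.3 and 67.9 CPM in the controls and 85.5, 86.2 and 85.8 CPM after GSK503. The treated libraries agreed within 1 CPM for *Sc5d*, and its log2FC was 0.33 (SE 0.08, limma adjusted p = 0.107). *Dhcr7*, which makes cholesterol from 7-dehydrocholesterol, overlapped fully, with 51.3, 38.8 and 56.0 CPM in the controls and 51.9, 51.3 and 46.8 CPM after GSK503. Its log2FC was 0.05, with a 95% interval from -0.23 to 0.34 (limma adjusted p = 0.902). Without control library 2, the fitted difference of *Dhcr7* was -0.10, and with library size scaling it was -0.06.

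*Stard4*, which carries cholesterol between membranes and makes none, was the only sterol arm gene with a lower fitted mean. It had 136, 107 and 136 CPM in the controls and 127, 113 and 98.3 CPM after GSK503, so the groups overlapped (log2FC -0.16, 95% interval -0.43 to 0.11, limma adjusted p = 0.608).

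**Figure D2:**
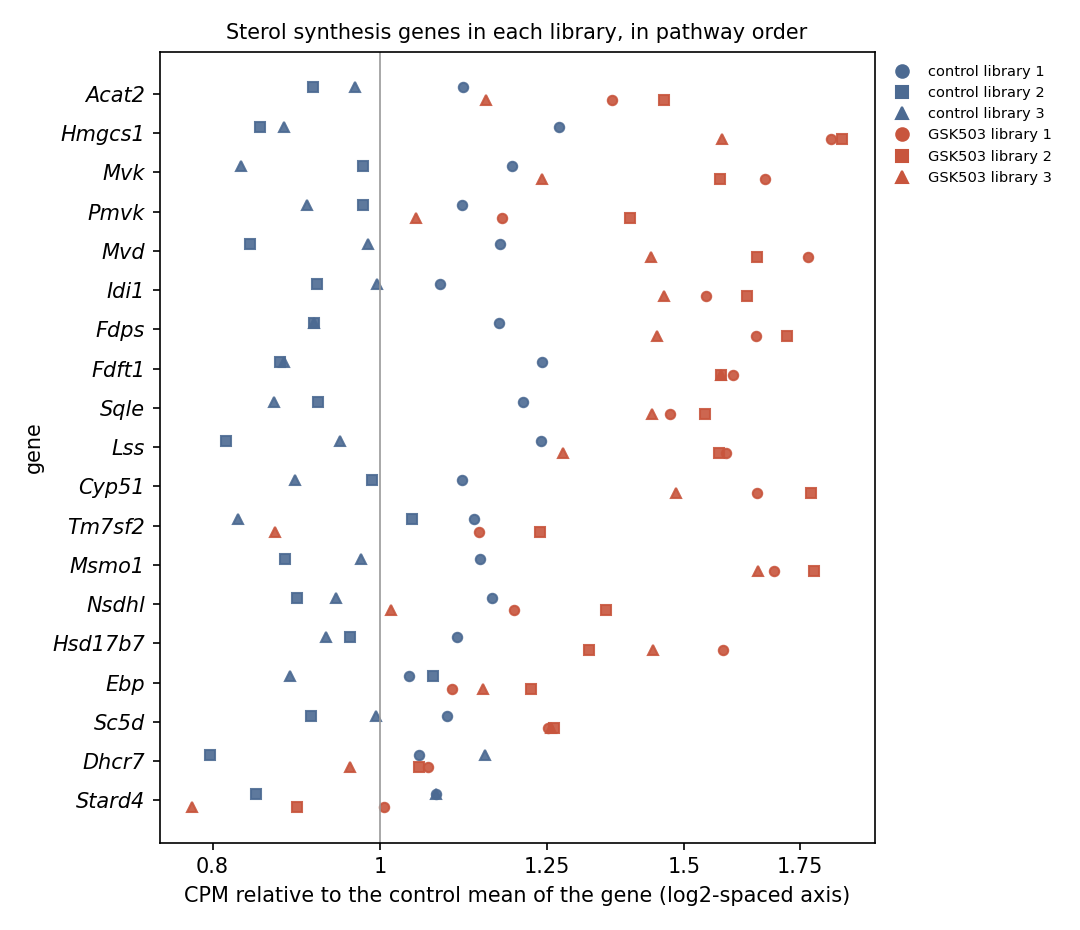
CPM of the 19 sterol genes in each library, divided by the control mean of the gene (log2-spaced x axis), from the thiolase at the top to sterol transfer at the bottom; blue points are controls and red points GSK503 libraries. Control library 1 (blue circles) is the highest control for 17 genes, and the groups separate for 14 genes, most widely for *Msmo1*, *Idi1* and *Cyp51*.

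The order of the libraries within a group was much the same from gene to gene. Control library 1 was the highest control for 17 of the 19 genes and control library 2 the lowest for 12. GSK503 library 2 was the highest treated library for 12 genes and GSK503 library 3 the lowest for 15. The average of log2(CPM + 0.1) over the 19 genes was 6.21, 5.89 and 5.93 in control libraries 1, 2 and 3 and 6.52, 6.55 and 6.34 in GSK503 libraries 1, 2 and 3. Even GSK503 library 3 thus averaged above control library 1, by less than the distance between control libraries 1 and 2.

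The number of called sterol genes depended on the control and treated libraries that entered the fit. Of 6 calls, 1 remained without control library 2 (*Msmo1*), 3 without control library 3 (*Idi1*, *Cyp51* and *Msmo1*), 2 without GSK503 library 1 (*Idi1* and *Msmo1*) and 0 without GSK503 library 2. Without control library 1, 9 sterol genes were called, the 6 together with *Fdft1*, *Sqle* and *Lss*. Without GSK503 library 3 the same 6 genes were called. The direction of the 6 genes did not turn in any of the 17 alternative fits, and the log2FC of *Msmo1* stayed between 0.66 and 0.88. Without the intensity trend in limma's variance 0 members were called, as only 16 genes of the whole table were.

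Of 8 fatty acid genes, 0 passed either level with limma and 0 with limma-voom. An unadjusted p below 0.05 was found for 1 (*Acly*, higher), beside 1177 higher and 1046 lower genes of all 16670 tested. *Acly*, the ATP citrate lyase that supplies cytosolic acetyl-CoA to both arms, had 441, 417 and 341 CPM in the controls and 474, 485 and 558 CPM after GSK503. It was the only 1 of the 8 fatty acid genes whose groups did not overlap, where 9.84% of all genes tested lay wholly above the controls. The log2FC of *Acly* was 0.34 (SE 0.11, limma adjusted p = 0.222). GSK503 library 3, which was low for most sterol genes among the treated libraries, was the highest for *Acly*.

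*Acss2*, which makes acetyl-CoA from acetate, overlapped, with 126 to 151 CPM in the controls and 134 to 150 CPM after GSK503 (log2FC 0.04, limma adjusted p = 0.904). *Me1*, the malic enzyme that provides NADPH, was low and uneven, with 4.03, 5.36 and 8.62 CPM in the controls and 10.9, 7.96 and 3.88 CPM after GSK503. The lowest value of *Me1* was thus in a treated library, and its log2FC of 0.28 had a 95% interval from -0.56 to 1.13 (limma adjusted p = 0.80). Without GSK503 library 1, the difference of *Me1* was -0.04.

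The chain-building enzymes overlapped between groups. *Acaca*, acetyl-CoA carboxylase 1, had 165, 135 and 146 CPM in the controls and 143, 152 and 118 CPM after GSK503 (log2FC -0.11, 95% interval -0.36 to 0.14, limma adjusted p = 0.713). *Fasn*, fatty acid synthase, had 491, 448 and 494 CPM in the controls and 571, 546 and 479 CPM after GSK503. GSK503 library 3 lay among the controls for *Fasn*, and its log2FC was 0.15 (95% interval -0.05 to 0.36, limma adjusted p = 0.514). The upper bound for *Fasn* was below the fitted log2FC of each of the 6 called sterol genes, although the difference between *Fasn* and these genes was not tested.

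Among the elongation and desaturation genes, *Elovl6* had 75.6 to 95.8 CPM in the controls and 86.5 to 98.1 CPM after GSK503 (log2FC 0.17, limma adjusted p = 0.507). *Scd1* and *Scd2* encode stearoyl-CoA desaturases, which make monounsaturated fatty acids, and lie near each other on chromosome 19. *Scd2* was by far the more abundant, with 1193, 659 and 1056 CPM in the controls and 1010, 1056 and 917 CPM after GSK503 (log2FC 0.08, limma adjusted p = 0.905). *Scd1* had 31.7, 16.5 and 24.0 CPM in the controls and 27.0, 30.5 and 8.82 CPM after GSK503 (log2FC -0.26, 95% interval -1.20 to 0.67, limma adjusted p = 0.836).

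Both desaturases were low in control library 2, and *Scd1* was lowest in GSK503 library 3. Per kilobase of the canonical transcript, the level of *Scd2* was 34.6, 36.8 and 40.6 times that of *Scd1* in the controls and 34.5, 31.9 and 95.9 times after GSK503, so that a single treated library stood apart. Without that library the difference of *Scd1* was 0.30, and without control library 2 the difference of *Scd2* was -0.18. RSEM shares reads between similar genes, and the paralogs *Scd3* and *Scd4* were listed at most at 0.408 and 0.582 CPM.

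**Figure D3:**
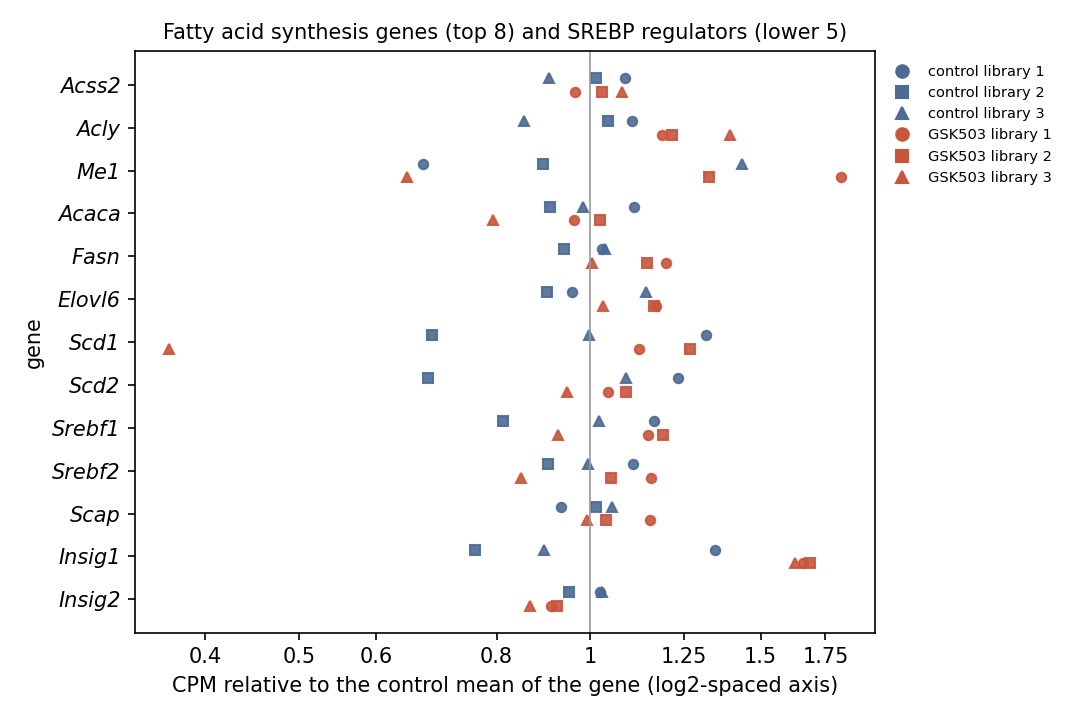
CPM of the 8 fatty acid genes and the 5 regulators in each library, divided by the control mean of the gene (log2-spaced x axis); blue points are controls and red points GSK503 libraries. The groups overlap for 7 of the 8 fatty acid genes, *Insig1* alone among the regulators has all red points above all blue ones, and the red triangle at the far left is *Scd1* in GSK503 library 3.

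The average over the 8 fatty acid genes overlapped between the groups. It was 6.99, 6.73 and 6.98 in control libraries 1, 2 and 3 and 7.14, 7.13 and 6.70 in GSK503 libraries 1, 2 and 3, on the log2(CPM + 0.1) scale. GSK503 library 3 was the lowest of all 6 libraries. The pooled SD between libraries of a group was 0.207 for this average and 0.148 for that of the sterol genes.

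**Figure D4:**
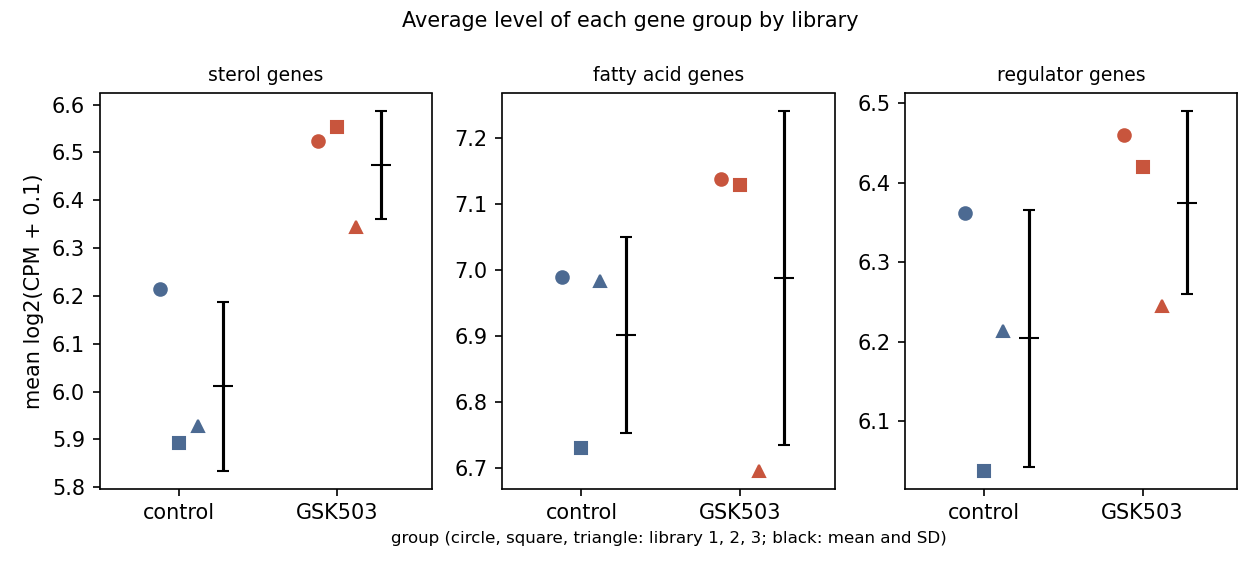
Mean of log2(CPM + 0.1) over the genes of each arm (y axis, with its own range in each panel) for every library, beside the group mean and SD in black. The sterol averages separate (5.89 to 6.21 against 6.34 to 6.55), whereas the fatty acid and regulator averages overlap, with GSK503 library 3 below control library 1.

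Of the 5 regulators, none passed 0.05 with limma or limma-voom, 1 passed 0.1 and had an unadjusted p below 0.05 (*Insig1*), and the intervals of the SREBP genes themselves included 0. *Srebf2* had 158, 129 and 142 CPM in the controls and 165, 150 and 121 CPM after GSK503, with both the highest and the lowest value in treated libraries. Its log2FC was 0.02, with a 95% interval from -0.25 to 0.29 (limma adjusted p = 0.964). *Srebf1* had 138, 96.5 and 121 CPM in the controls and 136, 141 and 110 CPM after GSK503 (log2FC 0.13, 95% interval -0.18 to 0.44, limma adjusted p = 0.736). *Scap*, the escort, had 70.4 to 79.5 CPM in the controls and 74.9 to 87.0 CPM after GSK503 (log2FC 0.08, limma adjusted p = 0.721). The table measures the transcripts of these factors and not the cut, nuclear proteins.

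The fitted means of the *Insig* genes lay in opposite directions. *Insig1*, which is itself a known SREBP target, had 94.9, 53.7 and 63.2 CPM in the controls and 117, 119 and 115 CPM after GSK503. All treated libraries lay above all controls and were close to each other, while control library 1 was high, as it was for the sterol genes. The log2FC of *Insig1* was 0.77 (SE 0.17, limma adjusted p = 0.0852), and without control library 1 it was 1.0 and was called. *Insig2* had 25.6, 23.8 and 25.7 CPM in the controls and 22.8, 23.1 and 21.7 CPM after GSK503. It was the only 1 of the 32 members with all treated libraries below all controls, as 9.22% of all genes tested were. The log2FC of *Insig2* was -0.15 (SE 0.09) and did not pass (limma adjusted p = 0.510). Per kilobase, the level of *Insig1* was 3.78, 2.30 and 2.50 times that of *Insig2* in the controls and 5.23, 5.23 and 5.38 times after GSK503.

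Levels between genes were compared per kilobase of the canonical transcript. In the controls, *Scd2* was the most abundant member, with a mean of 178 CPM per kb, followed by *Acly* (90.6), *Fdps* (89.5) and *Hmgcs1* (71.3). After GSK503, *Fdps* (144) and *Hmgcs1* (125) lay above *Acly* (115), and *Scd2* stayed highest at 182 CPM per kb. *Me1* was the least abundant member in both groups (1.44 and 1.82 CPM per kb). *Srebf1* and *Srebf2* had 27.4 and 28.1 CPM per kb in the controls.

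Promoters of the sterol genes held the CCAAT box more often than the SRE-like letters, which are also rarer in promoters at large. On either strand, TCACNCCA was found in 3 of the 26 members with a window (*Hmgcs1*, *Msmo1* and *Srebf2*) and in 4.66% of 13612 genes of the table with a window. In *Hmgcs1* it began 137 bases before the start and in *Msmo1* 177 bases before it. CCAAT was found in 14 of 15 sterol genes with a window, 4 of 6 fatty acid genes and 4 of 5 regulators, beside 42.1% of the genes of the table. The Sp1 letters GGGCGG were found in 14 of 15, 3 of 6 and 5 of 5, beside 59.97%. All 5 called genes with a window held both CCAAT and GGGCGG, as did most of the sterol genes that were not called. The E-box-like letters TCACNTGA were found in *Insig2* alone, beside 4.86% of the genes of the table, and matches of different motifs did not overlap in these windows. A match of letters is no proof of binding, and no window was held for *Fdps*, *Fdft1*, *Sqle*, *Stard4*, *Scd1* or *Scd2*.

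Other genes of the pathway were summarised as lists. Of 19 further sterol genes (accessory enzymes, dolichol synthesis, transport and esterification), 0 were called with limma or limma-voom, 1 passed 0.1 and 6 had an unadjusted p below 0.05, all higher. Their log2FC had a median of 0.15 and ran from -0.10 to 0.62, and 16 of the 19 fitted means were higher. Of 21 further fatty acid and glyceride genes tested, 0 were called by either tool and 2 had an unadjusted p below 0.05, 1 in each direction. Their median log2FC was 0.11 and they ran from -0.59 to 0.44. Of all 16670 genes tested, 1177 higher and 1046 lower genes had an unadjusted p below 0.05, and 8159 fitted means were higher.

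The libraries differed between groups in more than these genes. *Xist*, which is expressed from the inactive X chromosome of females, lay between 0.419 and 0.936 CPM in the controls and between 825 and 1236 CPM after GSK503. The Y-linked *Uty* lay between 42.5 and 53.7 CPM in the controls and between 0.670 and 1.082 CPM after GSK503. Expression of X- and Y-linked genes thus separated the groups completely, and the treatment and the sex of the mice cannot be told apart here. *Nsdhl* and *Ebp* lie on the X chromosome, and the other 30 members are autosomal. A fit without the genes matched to X or Y compared the same libraries, so it cannot separate treatment from sex. The log2FC of each remaining gene was unchanged by construction, and only the variance estimate and the adjustment could move. In that fit 5 of the 6 sterol calls remained, and *Mvd* had an adjusted p of 0.0507 from limma.

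**Figure D5:**
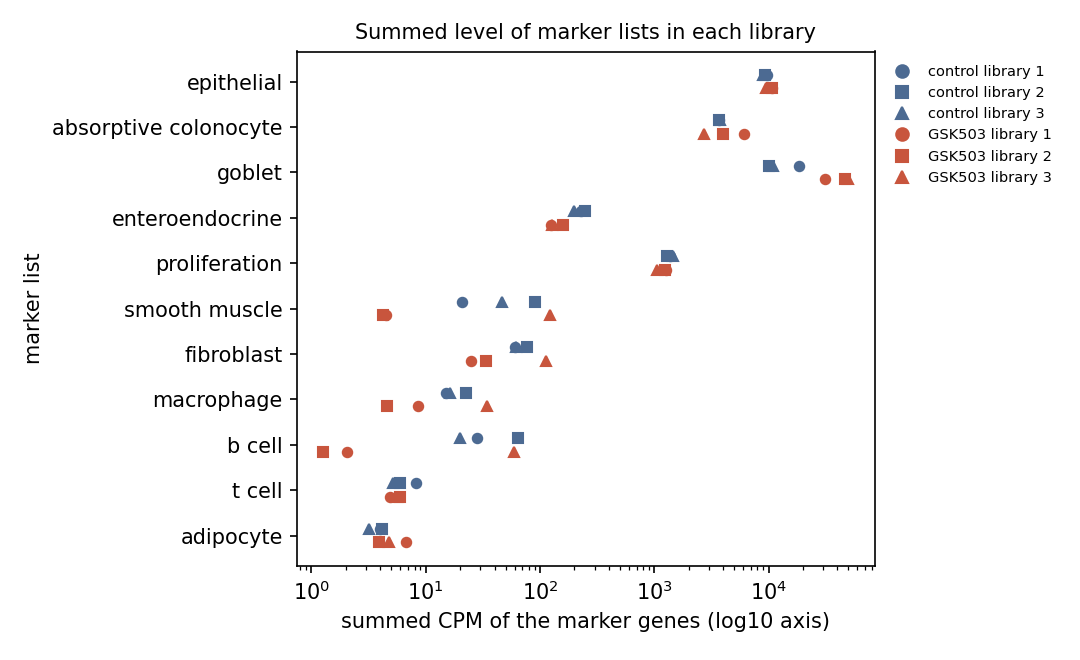
Summed CPM of marker lists (log10 x axis) in each library, with controls in blue and GSK503 libraries in red. Epithelial markers overlap, goblet markers are higher in all GSK503 libraries (31336 to 49874 against 10122 to 18316), and GSK503 library 3 (red triangles) has the most smooth muscle, fibroblast and macrophage signal.

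Epithelial markers were abundant in every library, as the label of colonic crypts says, with a summed level between 8884 and 9757 CPM in the controls and between 9418 and 10779 CPM after GSK503. All 6 goblet cell markers were higher in every treated library and 3 of them were called, with sums of 10122 to 18316 CPM in the controls and 31336 to 49874 CPM after GSK503. All 6 enteroendocrine markers had a lower fitted mean and 3 were called, with sums of 199 to 247 CPM in the controls and 125 to 160 CPM after GSK503. Absorptive colonocyte sums ran from 3665 to 3782 CPM in the controls and from 2722 to 6147 CPM after GSK503, lowest in GSK503 library 3. Most of that spread lay in *Car1*, with 1791 to 2206 CPM in the controls and 4019, 2069 and 954 CPM in GSK503 libraries 1, 2 and 3. Of the 6 absorptive markers, 5 had a higher fitted mean and 0 were called. Proliferation markers summed to 1293 to 1466 CPM in the controls and 1048 to 1256 CPM after GSK503. Of these 6 markers, 3 had a higher and 3 a lower fitted mean (median log2FC -0.01), and 0 were called. The part of these shifts in the sterol gene differences was not tested.

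GSK503 library 3, which had the lowest sterol levels of the treated libraries, also held the most signal of other tissue layers. The 6 smooth muscle markers summed to 4.52, 4.26 and 122 CPM in GSK503 libraries 1, 2 and 3 and to 20.9, 90.1 and 46.2 CPM in control libraries 1, 2 and 3. Fibroblast markers reached 113 CPM in GSK503 library 3, against 25.1 and 33.8 CPM in GSK503 libraries 1 and 2 and 60.2 to 77.1 CPM in the controls. Macrophage markers summed to 34.1 CPM there, against 15.1 to 22.7 CPM in the controls, and B cell markers to 59.0 CPM, within the range of the controls (20.1 to 63.6 CPM). Nearly all of that B cell sum was *Jchain*, with 57.9 CPM there and 18.2 to 48.6 CPM in the controls. All 5 B cell markers had a lower fitted mean, and 0 were called. Endothelial markers summed to at most 18.1 CPM, T cell markers to at most 8.18 CPM, adipocyte markers to at most 6.66 CPM and squamous markers to at most 4.69 CPM in any library. The 6 called sterol genes were the same with and without GSK503 library 3. Control library 2 had the most smooth muscle and B cell signal of the controls, and without it 1 sterol gene was called (*Msmo1*). The part of this signal in the sterol gene differences was not tested.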

How the data were processed

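Total RNA of colonic crypts was sequenced by the submitters as paired-end 76-base reads (Illumina Stranded Total RNA Prep). For the deposited table, the authors used STAR for alignment (GRCm39), RSEM for estimated counts per gene and edgeR for TMM scaling. Each deposited signal is thus an estimated CPM of a TMM-scaled library, and the strand setting of the counting is not given in the sources used here. Sums per library ran from 975566 to 1076042. Between 75.2% and 78% of the nonzero gene values of a library were whole multiples of its step (tolerance 0.01). The main test was thus not a count test, and limma-voom on recovered counts served as an alternative. Library totals were estimated from this step. Groups and replicate numbers came from the sample labels.

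Values were compared with limma (version 3.58.1, R 4.3.3; lmFit and eBayes with an intensity trend) on log2(value + 0.1), a scale that understates the change of low genes, with Benjamini-Hochberg adjustment over 16670 genes; the filter (at least 0.1 in at least 3 libraries) left out 1379 of 18049 genes. The members, the gene lists and the tests were chosen with earlier results of these data known, so lists are described by counts and medians and no test of a list was made. All members are named. Of other lists only genes with an adjusted p below 0.05 could be named, apart from the sex chromosome genes and the paralogs *Scd3* and *Scd4*. *Car1* and *Jchain* are named as well, because they weighed heavily in a marker sum. Sequences are shown for called members whose window held SRE-like or CCAAT letters. Symbols were matched to the GENCODE annotation of GRCm39 (95.97% to a single gene). The fit was tested on simulated data. Alternatives were library size and median-of-ratios scaling, other filters and pseudocounts (0.01 and 1), no trend, robust empirical Bayes, limma-voom on the recovered estimated counts, no X and Y genes, the replicate block and leaving out each library. No 2 libraries were identical, and pairs of libraries correlated across genes at a Pearson's r of 0.978 to 0.990. Other steps used Python 3.11.15 with pandas 2.3.3, numpy 2.4.6, matplotlib 3.10.9 and scipy 1.17.1. A further allele of the mouse line is not reported here.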

Additional observations from a re-analysis of the deposited data

How the results depend on the processing

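The members were recomputed in 17 alternative fits (16 for *Nsdhl* and *Ebp*, which drop out without X and Y genes). Of the resulting values for single genes, 481 kept their direction and their side of the threshold, 35 fell short of 0.05, 9 newly passed it and 17 reversed. The count of 6 called sterol genes was 0 without the intensity trend, when 9 genes of the table were higher and 7 lower, and 1 (*Cyp51*) with the replicate block. Leaving out 1 library at a time gave between 0 and 9 sterol genes and between 0 and 1 regulators. The other settings gave between 4 and 8 sterol genes, and fatty acid genes were called in no setting. The labels gave no pairing by replicate number. Deviations of same-numbered libraries from their group means correlated at 0.03, -0.13 and -0.12 across genes. With 3 libraries in each mean, these values cannot exclude a pairing. The block left 23 higher and 10 lower genes in the table. Library size scaling moved the median log2FC of all genes from -0.01 to -0.12 and gave 82 higher and 178 lower calls in place of 83 and 24. It set the medians at 0.47 (sterol), 0.00 (fatty acid) and -0.03 (regulators). It reversed *Tm7sf2* (-0.0023), *Dhcr7* (-0.0603), *Acss2* (-0.079), *Scd2* (-0.0357), *Srebf2* (-0.0943) and *Scap* (-0.0311). Leaving out 1 library gave ranges that crossed 0 for *Tm7sf2* (-0.0203 to 0.26), *Dhcr7* (-0.10 to 0.16), *Acss2* (-0.0354 to 0.10), *Me1* (-0.0378 to 0.70), *Scd1* (-0.59 to 0.30), *Scd2* (-0.18 to 0.25), *Srebf1* (-0.011 to 0.25) and *Srebf2* (-0.0771 to 0.15). The cause of these shifts was not tested. The lowest value of any member was 3.88 CPM (*Me1*), above the 0.0228 to 0.0271 CPM that 3 counts were worth.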

Other observations

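Lists of genes that respond to lipids or to the time of day gave the following values. Of 9 genes of the liver X receptor group (the receptors, sterol transporters and other genes listed as their targets), 0 were called with limma or limma-voom, 1 passed an adjusted p of 0.1 (lower), and unadjusted p was below 0.05 for 4 lower genes and 1 higher gene. Their median log2FC was -0.46, and 6 of the 9 had a lower fitted mean. Of 9 PPAR and fasting genes, 0 were called by either tool, 3 had an unadjusted p below 0.05 (2 lower and 1 higher), 7 had a lower fitted mean, and the median log2FC was -0.13. Of 14 circadian clock genes, 0 were called by either tool, 1 passed 0.1 (lower), 2 had an unadjusted p below 0.05 (both lower), and the median log2FC was -0.09. For comparison, 1177 higher and 1046 lower genes of all 16670 tested had an unadjusted p below 0.05. A lower fitted mean was found for 8511 of the 16670. The hour of collection was not given in the sources used here.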
